A study of Mus musculus with 2 samples.

Results

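The 9 genes described here carry out iron absorption, storage and sensing in the intestine: Cybrd1, Slc11a2, Heph, Slc40a1, Tfrc, Fth1, Ftl1, Aco1 and Ireb2. They were chosen by name, and every probe set annotated to one of them was taken from arrays that name 18193 genes with 45101 probe sets. Of the 9 genes, 8 have 18 probe sets of their own. Ftl1 is read only by 3 probe sets that the annotation shares with its pseudogene Ftl1-ps2 and, for 1 of them, with microRNA genes. It is therefore described separately and enters no count.

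Crypts of the small intestine were compared between Lpcat3 F/F mice (control) and Lpcat3 F/F, Villin-CreERT2 mice (knockout). Both groups carried the floxed Lpcat3 alleles and both received tamoxifen, whereas the tamoxifen-activated Cre recombinase, driven by the Villin promoter of the intestinal epithelium, was present in the knockout group only. Mice were 8 to 10 weeks old, were injected with tamoxifen (1 mg daily, over 5 days) and gave their crypts 2 weeks after it. Each genotype is a single RNA pool from 5 mice on 1 array. There are thus no replicates and no test, and genotype, Cre, pool and array cannot be told apart. The comparison asks which crypt transcripts differ when Lpcat3, an acyltransferase that puts polyunsaturated chains into phospholipids, is deleted from the epithelium.

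Dietary ferric iron is reduced at the brush border, carried into the enterocyte as ferrous iron, held in ferritin, and exported to the blood through ferroportin together with a copper-dependent oxidase. Crypt cells take up iron from blood transferrin through the transferrin receptor. The iron regulatory proteins bind hairpins in messenger RNAs when iron is scarce, which blocks translation of ferritin and protects the transferrin receptor message, so ferritin protein need not follow ferritin RNA. In the intestine, hypoxia-inducible factor 2 raises transcription of the reductase, the importer and the exporter. Membrane phospholipids with polyunsaturated chains are the substrate of ferroptosis, an iron-dependent form of cell death, and Lpcat3 and Acsl4 are known to supply them.

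The sequences upstream of 4 of these genes are shown because hypoxia-inducible factors are known regulators of iron genes, Cybrd1 and Tfrc among them, and because Fth1 and Ftl1 encode both chains of ferritin, the iron store. RefSeq (GRCm38.p6) start sites were found for 6 of the 9 genes, and where 2 start sites are listed, as for Tfrc and Fth1, the downstream one was taken. Each sequence is the 250 bases before that start, from 5′ to 3′ on the strand of the gene. Capitals mark ACGTG or GCGTG, the core letters bound by hypoxia-inducible factors, searched on both strands (CACGT and CACGC on the other strand). Cybrd1 lies at chr2:71117804-71118053 on the plus strand, Tfrc at chr16:32608872-32609121 on the plus strand, Fth1 at chr19:9982396-9982645 on the plus strand and Ftl1 at chr7:45459887-45460136 on the minus strand.
Cybrd1: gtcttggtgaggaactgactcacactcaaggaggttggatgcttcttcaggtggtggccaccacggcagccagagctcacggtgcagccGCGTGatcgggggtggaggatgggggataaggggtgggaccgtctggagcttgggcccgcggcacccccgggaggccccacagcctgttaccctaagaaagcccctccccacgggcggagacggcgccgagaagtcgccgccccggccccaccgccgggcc
Tfrc: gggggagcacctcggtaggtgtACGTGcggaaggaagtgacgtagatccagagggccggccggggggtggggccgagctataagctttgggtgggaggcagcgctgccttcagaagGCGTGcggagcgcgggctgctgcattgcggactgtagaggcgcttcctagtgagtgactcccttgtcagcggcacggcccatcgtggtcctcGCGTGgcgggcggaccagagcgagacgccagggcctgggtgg
Fth1: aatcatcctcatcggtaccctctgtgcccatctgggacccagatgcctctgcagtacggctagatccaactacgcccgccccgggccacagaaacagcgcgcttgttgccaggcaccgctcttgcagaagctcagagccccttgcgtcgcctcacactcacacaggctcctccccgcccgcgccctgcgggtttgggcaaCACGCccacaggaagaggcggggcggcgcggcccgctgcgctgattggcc
Ftl1: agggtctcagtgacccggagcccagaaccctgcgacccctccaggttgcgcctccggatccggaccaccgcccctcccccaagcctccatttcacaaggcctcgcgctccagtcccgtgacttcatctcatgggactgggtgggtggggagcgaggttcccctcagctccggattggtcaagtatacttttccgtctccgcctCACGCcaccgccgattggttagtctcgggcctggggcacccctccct

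Of the 6 upstream windows, 4 held at least 1 of these motifs, against 38.6% of 32851 upstream windows of the same length (16.6% for ACGTG and 28.2% for GCGTG). Cybrd1 had 1 GCGTG, whose first base lay 161 bases before the start. Tfrc had 1 ACGTG at 228 bases and 2 GCGTG at 134 and 42 bases. Fth1 and Ftl1 each had 1 GCGTG, read on the opposite strand, at 50 and 47 bases. The windows of Aco1 and Ireb2 held none of these letters. These matches are a description of sequence and were not tested as binding sites.

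Most iron genes had nearly the same signal in both pools. Of the 8 genes, 7 lay within 1.5-fold, none was at least 1.5-fold higher in the knockout pool, and 1, Cybrd1, was at least 1.5-fold lower. Among all 11496 measured genes, 4.76% were higher and 8.74% lower by at least 1.5-fold, 13.5% in either direction, so 1 of 8 is near the background. The median log2 ratio, knockout over control, was -0.026 for the 8 genes and -0.042 for all measured genes. Of the 8 genes, 6 lay within 1 SD of the measurement error (0.279 on the log2 scale, or 1.21-fold), as did 58% of measured genes. That error was taken from 4582 genes read by at least 2 probe sets, and it holds no variation from mouse to mouse or pool to pool. A signal counts as measured when it reaches 92.9, the median of all signals of both arrays, and lower signals were raised to that floor. Of the 18 probe sets, 16 were above the floor on both arrays and 2 were below it on both.

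**Figure D1:**
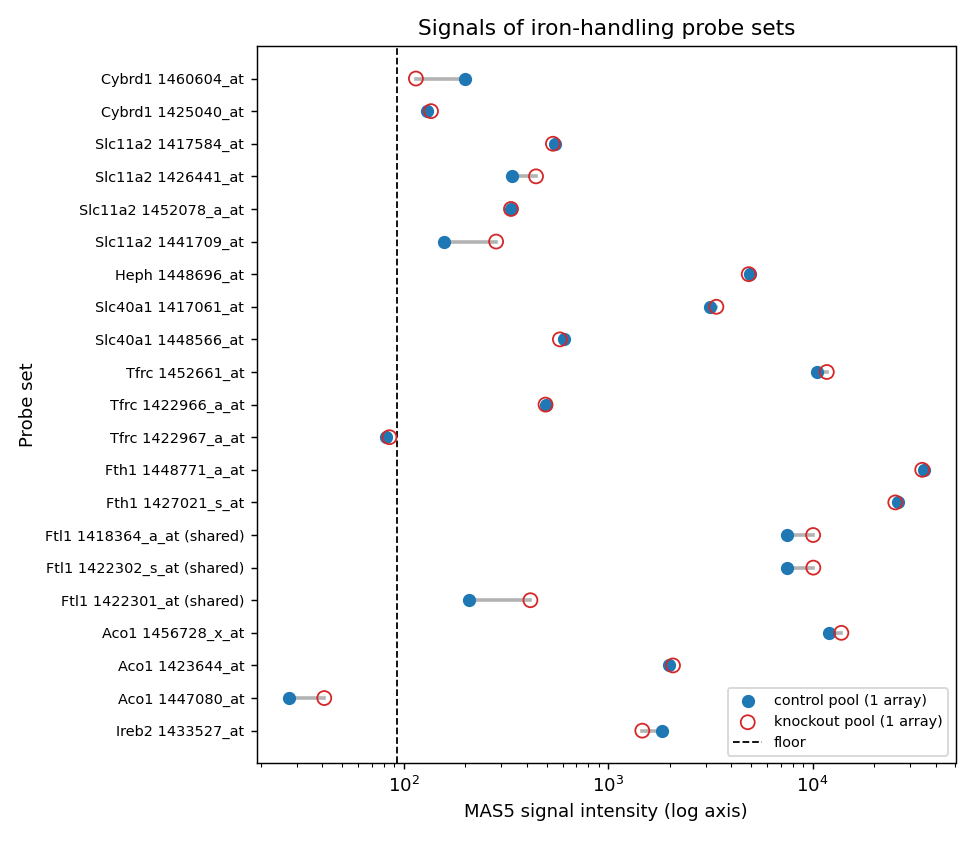
MAS5 signal intensity (log axis) of each iron-gene probe set in the control pool (filled blue) and the knockout pool (open red), joined by a grey line, with the floor of 92.9 as a dashed line. Control and knockout points nearly coincide for Heph, Slc40a1 and Fth1. They part for 1 probe set of Cybrd1, for 1426441_at and 1441709_at of Slc11a2, for Ireb2 and for the shared probe sets of Ftl1. Those of 1447080_at of Aco1 (27.4 and 40.9) also part, but below the floor.

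The absorptive step begins with Cybrd1, the duodenal ferric reductase. Its 1460604_at probe set read 200.5 in control and 114.8 in knockout, a log2 ratio of -0.80 (1.75-fold lower). Its other probe set, 1425040_at, read 129.7 in control and 136.1 in knockout, a log2 ratio of 0.069. The first is the brighter by mean signal and stands for the gene, but the second shows no difference beyond the measurement error. Both probe sets were close to the floor, and with the mean over both the log2 ratio was -0.37, within 1.5-fold. Among measured genes with a mean signal under the 75th percentile of all signals (451.4), which includes Cybrd1, 14.4% were at least 1.5-fold lower, against 5.03% of the brighter genes.

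Slc11a2 encodes the divalent metal transporter that carries ferrous iron into the enterocyte. Its brightest probe set, 1417584_at, read 550.2 in control and 537.4 in knockout (log2 ratio -0.034), and 1452078_a_at read 336.0 and 335.0 (-0.005). The probe set 1426441_at read 339.3 and 444.1 (0.39), and 1441709_at read 158.2 and 283.3 (0.84, or 1.79-fold higher). The 4 probe sets therefore spread over 0.88 on the log2 scale, from no difference to a difference past 1.5-fold, and the mean over them was 0.30. Slc11a2 is known to have transcripts with different ends, with and without an iron-responsive hairpin. Which of them each probe set reads was not analysed here.

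Export of iron to the blood needs Slc40a1, ferroportin, and Heph, a copper-dependent ferroxidase. Slc40a1 read 3162 in control and 3385 in knockout by 1417061_at (log2 ratio 0.098) and 609.5 and 581.1 by 1448566_at (-0.069). These ratios have opposite signs and both are smaller than the measurement error. Heph, read by 1448696_at alone, was at 4964 in control and 4874 in knockout (-0.026). Of all measured genes, only 6.44% had a smaller absolute ratio than Heph and 23.5% a smaller one than Slc40a1. Ferroportin is also expressed by macrophages, and of 9 macrophage marker genes 2 were above the floor in both pools, Csf1r (2.53 by its brightest probe set, 0.65 by its lowest) and Adgre1 (0.073). Cd68, C1qa and C1qb reached the floor in the knockout pool only, which fixes their direction, and Cd163, C1qc, Mrc1 and Itgam in neither. Summed over all 9, without the floor, the signal was 551 in control and 1468 in knockout. The part of macrophages in the Slc40a1 signal was not tested.

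Tfrc, the transferrin receptor through which dividing cells take up iron, read 10538 in control and 11744 in knockout by 1452661_at (log2 ratio 0.16). Its 1422966_a_at probe set read 497.9 and 494.3 (-0.010), and 1422967_a_at was below the floor in both pools (82.4 and 85.2). No Tfrc probe set differed beyond the measurement error. In the same pools, 3 of 6 measured markers of crypt stem and cycling cells were at least 1.5-fold lower, against 8.74% of all measured genes. All 6 had ratios below 0, with a median of -0.57 (-0.042 for all measured genes). Their summed signal was 64155 in control and 40216 in knockout; Lgr5 (-2.25) was lowest and the cell-cycle gene Mki67 (-0.29) highest. In pooled tissue RNA, fewer cells of a type and less RNA per cell cannot be told apart, and the part of these cells in the Tfrc signal was not tested.

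The array also carries 3 control probe sets along the length of the Tfrc transcript, which were set apart from the count. The probe set at the 3′ end read 238.8 in control and 220.1 in knockout (log2 ratio -0.12). Those in the middle (56.3 and 87.8) and at the 5′ end (35.6 and 71.7) were below the floor in both pools and give no ratio. For Actb, the 3′ signal was 1.98 times the 5′ signal in control and 1.64 times in knockout, and for Gapdh 0.785 and 0.742 times, a ratio used as a sign of RNA integrity.

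Ferritin stores iron in a shell of heavy and light chains; Fth1 encodes the heavy chain, which oxidises iron, and Ftl1 the light chain, which helps to form the mineral core. Fth1 read 34995 in control and 34399 in knockout by 1448771_a_at (log2 ratio -0.025), and 26113 and 25400 by 1427021_s_at (-0.040). Both Fth1 probe sets showed the same level in both pools, with signals above 20000, where a bright array signal may be compressed; this was not tested. The probe sets that Ftl1 shares with its pseudogene read 7483 in control and 10067 in knockout by 1418364_a_at (0.43) and 7469 and 10089 by 1422302_s_at (0.43, 1.35-fold higher). The remaining one, 1422301_at, which is also annotated to the microRNA genes Mir692-1, Mir692-2 and Mir692-3, read 208.2 and 416.9 (1.00). All 3 shared probe sets read higher in the knockout, 2 of them by less than 1.5-fold, but gene and pseudogene cannot be told apart in them.

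**Figure D2:**
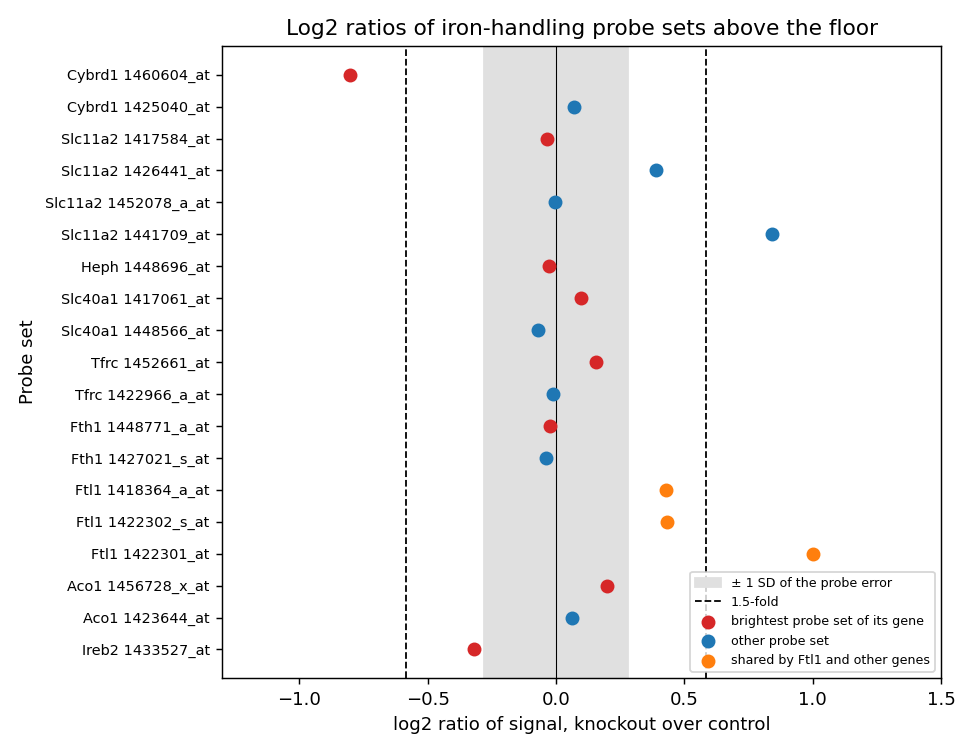
Log2 ratio of signal, knockout over control, of the iron-gene probe sets above the floor: the brightest probe set of each gene in red, its other probe sets in blue, and those shared by Ftl1 and other genes in orange. The grey band is 1 SD of the measurement error (0.279) and the dashed lines mark 1.5-fold; 1460604_at of Cybrd1 (-0.80) lies outside on the low side, and 1441709_at of Slc11a2 (0.84) and 1422301_at (1.00) on the high side.

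Iron is sensed in the cytosol by both iron regulatory proteins. Aco1 encodes iron regulatory protein 1, which is an aconitase while it holds an iron-sulfur cluster and binds RNA without it. It read 12062 in control and 13834 in knockout by 1456728_x_at (log2 ratio 0.20), a probe set type that can bind related transcripts, and 1986 and 2077 by 1423644_at (0.064). Another probe set, 1447080_at, was below the floor in both pools (27.4 and 40.9). Ireb2 encodes iron regulatory protein 2, which is broken down when iron is plentiful. Its single probe set, 1433527_at, read 1836 in control and 1470 in knockout (-0.32, 1.25-fold lower). That ratio is 1.15 times the measurement error, and 64.0% of measured genes had a smaller absolute ratio. Aco1 was thus within the error by both measured probe sets and Ireb2 slightly past it.

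**Figure D3:**
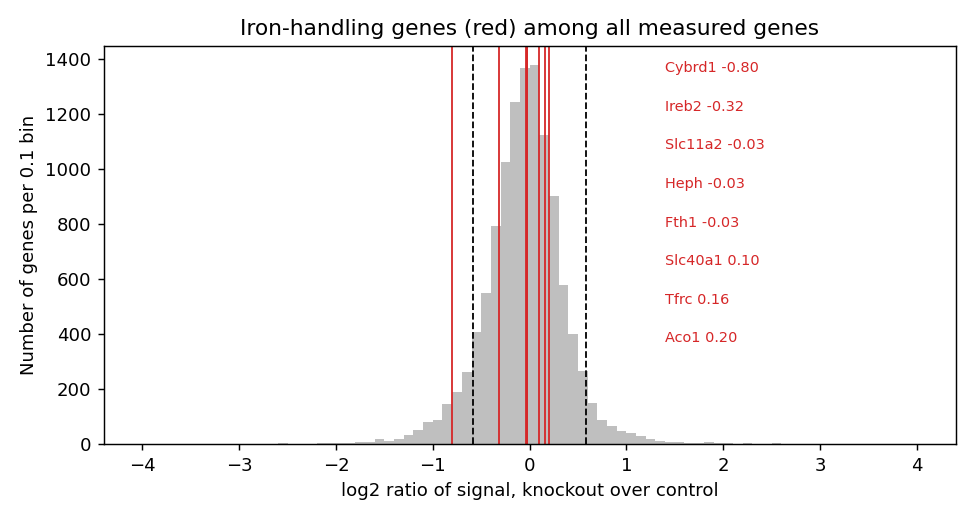
Histogram of the log2 ratio of all 11496 measured genes (grey, number of genes per bin of 0.1), with the 8 iron genes as red lines and 1.5-fold as dashed lines. Of the 8 lines, 7 stand between the dashed lines, and Cybrd1 (-0.80) stands in the lower tail.

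As a check of the labels, the targeted gene Lpcat3 read 4691 in control and 928 in knockout, a log2 ratio of -2.34 (5.06-fold lower) by its single probe set. The pools are crypt RNA, and the part of absorptive enterocytes in it was not tested. Markers of the absorptive enterocyte, the cell that takes up dietary iron, had a median of 0.22. Of 11 listed, the 10 with a probe set of their own were all well above the floor in both pools (Vil1 14737 and 17444). They ranged from -0.94 for Apoc3 (12399 and 6450) to 1.20 for Rbp2 (7494 and 17162), with 7 ratios above 0 and 3 below. Iron absorption is a task of the proximal small intestine, and the 6 proximal markers had a median of -0.35, from -2.65 (Cyp2b10) to 0.58 (Pdx1, a duodenal transcription factor), while of 5 distal markers Slc51a (0.37) and Slc51b (0.35) were above the floor in both pools, Osr2 in control only (150.9 and 63.8, at least 1.62-fold lower) and Fabp6 and Slc10a2 in neither. T and natural killer cell markers were at least 1.5-fold lower for 7 of 7 genes by their brightest probe sets (8.74% of all measured genes). Their median was -2.51 and their summed signal 18646 in control and 3258 in knockout. Plasma cell markers were at least 1.5-fold higher for 3 of 3 measured by their brightest probe sets (4.76% of all measured genes). Their median was 0.67 and their summed signal 2543 in control and 5970 in knockout. Jchain (592.9 and 2974) was highest at 2.33. The probe sets of Sdc1 (1741 and 2663 by the brightest) ran from -0.031 to 0.61. Tnfrsf17, also listed, was below the floor in both pools (6.71 and 7.27). None of the 4 erythroid markers read by a probe set of their own, Hba-a1 among them, reached the floor in either pool.

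Around the 8 genes, 5 further lists of iron-handling genes were described in the same way. Of 12 other iron transport genes measured, 1 was higher and 2 were lower by at least 1.5-fold (4.76% and 8.74% of all measured genes), which is near the background, and the median was -0.049. Steap1, of the metalloreductase family, was higher (556.8 in control, 956.0 in knockout; 0.78, and 1.18 by its other probe set). Steap3, the ferrireductase of endosomes, read 183.9 and 107.7 (-0.77), and Tfr2, the second transferrin receptor, 162.0 and 95.3 (-0.76), both near the floor. Slc39a14, a zinc and iron transporter gene, had 4 probe sets above the floor. Their ratios ran from 0.29, for the brightest, to 0.96, past 1.5-fold. Lcn2, Cp, Hephl1, Steap4 and Slc11a1 were below the floor in both pools.

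Ferritin turnover and iron chaperone genes showed no difference of 1.5-fold in either direction (6 measured, median 0.035), against 13.5% of all measured genes with one. Ncoa4, the receptor that delivers ferritin for breakdown, read 3234 in control and 3314 in knockout (log2 ratio 0.035). Fbxl5, the iron-sensing ligase subunit that marks iron regulatory protein 2 for breakdown, read 1430 and 1465 (0.035). The chaperone genes Pcbp1 (-0.018) and Pcbp2 (-0.25) lay within the error. The 9 measured genes of systemic iron regulation had a median of -0.28 (all measured genes -0.042). By their brightest probe sets, 8 ratios were below 0 and 2 genes were at least 1.5-fold lower (8.74% of all measured genes). These 2 were Bmp2 (440.5 and 275.6, -0.68) and Neo1 (1671 and 1087, -0.62). Neo1 is a co-receptor of bone morphogenetic protein signalling, and its highest probe set gave 0.46. The highest probe sets of Bmpr1a (0.35) and Acvr1 (0.31) were also above 0. Hfe, the hemochromatosis gene, was at 0.13, and the hormone gene Hamp, expressed mainly in liver, was below the floor.

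The 17 measured genes of heme synthesis, transport and breakdown had a median of 0.058. By their brightest probe sets, 3 were higher by at least 1.5-fold and none was lower by that much (4.76% and 8.74% of all measured genes). The 3 higher genes were Cpox, Flvcr1 and Flvcr2. Cpox, an enzyme of heme synthesis, read 498.2 in control and 971.5 in knockout (0.96, but 0.14 by its other probe set). Flvcr1, a heme exporter, read 1950 and 3070 (0.66). Flvcr2 reached the floor in the knockout pool only (77.1 and 207.4, at least 2.23-fold higher). The heme-and-folate carrier gene Slc46a1 was at -0.39, but its other probe set gave -0.67, past 1.5-fold lower. Slc48a1, a heme transporter of endosomes, was at -0.50 (-0.58 by its other probe set), and Uros at -0.52. Hmox1, the inducible heme oxygenase, was below the floor in both pools (48.4 and 42.5). Of 22 measured genes of iron-sulfur cluster assembly, all 22 lay within 1.5-fold by their brightest probe sets, as did 86.5% of all measured genes. Their median was 0.15 (all measured genes -0.042), from -0.57 for Mms19 to 0.48 for Ciapin1, with 15 ratios above 0. Other probe sets passed 1.5-fold for Mms19 (-0.775), Cisd2 (-0.776), Ciapin1 (0.668) and Bola3 (0.591).

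Of 18 measured genes of the hypoxia-inducible factor pathway and its targets, 4 were higher by at least 1.5-fold and none was lower by that much (4.76% and 8.74% of all measured genes), with a median of 0.18. Egln3, a prolyl hydroxylase induced by these factors, read 665.8 in control and 1448 in knockout (log2 ratio 1.12, and 0.71 by its other probe set). Slc2a1, the glucose transporter, read 954.6 and 1588 (0.73, up to 1.28 by other probe sets), and Bnip3, a mitophagy receptor, 315.3 and 511.7 (0.70). Hif1a had 0.65 by the brighter and 0.15 by the dimmer probe set. Epas1, which encodes the alpha subunit of hypoxia-inducible factor 2, read 1332 and 1352 (0.022). Egln1 (-0.46), Egln2 (-0.36) and Ndrg1 (-0.30) were lowest by their brightest probe sets. Other probe sets reached -0.61 for Ndrg1, and those of Arnt ran from -1.12 to 0.11 (-0.27 by the brightest). The iron genes known to follow hypoxia-inducible factor 2 in the intestine are Slc11a2, Cybrd1 and Slc40a1. By their brightest probe sets they were at -0.034, -0.80 and 0.098, while 1426441_at and 1441709_at of Slc11a2 gave 0.39 and 0.84. Both Cybrd1 probe sets were close to the floor. Activity of the factor was not tested.

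**Figure D4:**
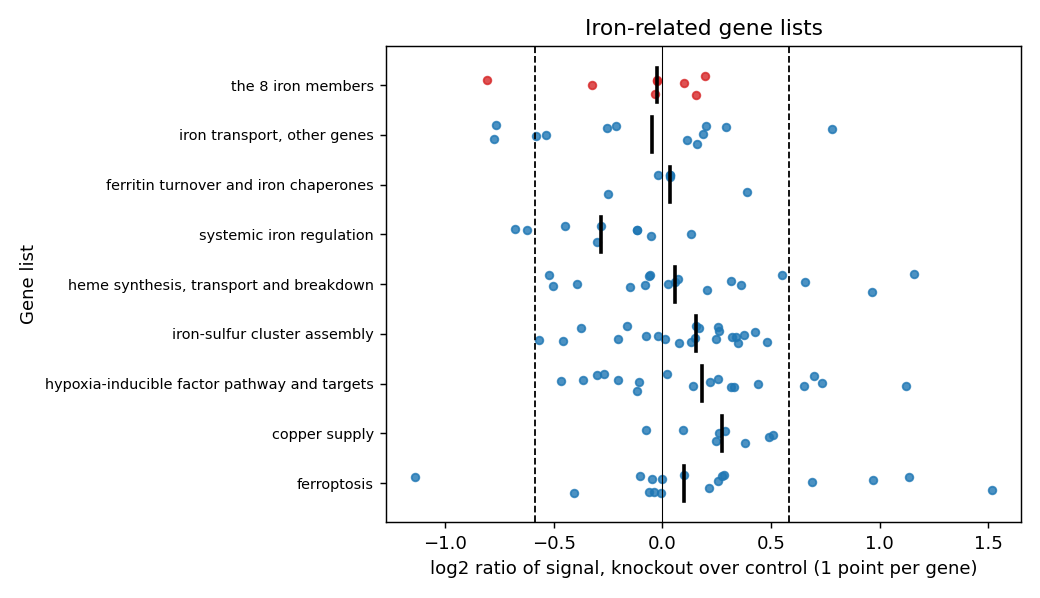
Log2 ratio of signal, knockout over control, of each measured gene (1 point per gene) in the 8 iron members (red) and in 8 related gene lists (blue), with medians as black bars and 1.5-fold as dashed lines. Points are displaced vertically only to separate them. Medians run from -0.28 for systemic iron regulation to 0.28 for copper supply, and the iron-sulfur, copper and ferritin turnover lists have no point past 1.5-fold.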

How the data were processed

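Crypt RNA of 1 control pool and 1 knockout pool was read on 1 Affymetrix array each. The authors deposited linear signal intensity values computed with MAS5, as the submitters' processing notes state; neither version nor options are known here. Both columns had the same mean (500) after trimming 2% at each end and were used as deposited. The 64 control probe sets were set aside. Of the other 45037, 34945 carry 1 gene symbol, updated through RefSeq (GRCm38.p6) for 34741, 932 carry several and 9160 none. Signals below the 50th percentile (92.9) were raised to it, and log2 ratios were formed as knockout minus control. The probe set with the highest mean log2 signal stands for its gene. Measurement error compares the 2 brightest probe sets of a gene, as the SD of their difference over the square root of 2. With 1 array per group no test was run, and precision is limited by the number of arrays. All 9 members, Lpcat3 and the 3 highest and 3 lowest genes of each list could be named; others named were chosen after their values were seen. The members and lists were chosen with earlier results of these data known. The ratio and error steps were tested on simulated data. Alternatives covered scaling, floor and choice of probe set. Python 3.11.15, pandas 2.3.3 and statsmodels 0.14.6 were used.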

Additional observations from a re-analysis of the deposited data

How the results depend on the processing

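No paired analysis was possible because there is a single array per genotype, which also means that none can be omitted in turn. None of the 8 iron genes was at least 1.5-fold higher under any of the 9 planned settings, and their median log2 ratio stayed between -0.026 and 0.010. The count of iron genes at least 1.5-fold lower was 1, Cybrd1, and became 0 with the floor at the 70th percentile, where Cybrd1 was not measured, with a pseudocount in place of the floor (Cybrd1 at -0.50) and with the mean over probe sets (Cybrd1 at -0.37). Without Cybrd1, the only gene in the count, it was necessarily 0. Taking the shared probe sets for Ftl1, which all read higher in the knockout, could not raise it and left it at 1. Both settings were added after the data were seen. Over the planned settings the other iron genes moved by less than the measurement error, except Slc11a2 with the mean over probe sets (0.30). Scaling changed the sign of the small ratios of Fth1 (-0.070 to 0.009), Heph (-0.088 to 0.007) and Slc11a2 (up to 0.033). Of 135 list medians recomputed, 131 moved by less than the error; the others were those of distal small-intestinal markers (0.35 in the main setting, 0.017 with the pseudocount, -0.17 without _s_at and _x_at probe sets) and macrophage markers (0.42 in the main setting, 1.14 with the higher floor, 1.33 with none). The counts over all genes depend on the floor: at the 30th percentile, 1234 genes passed 1.5-fold upwards and 1889 downwards, and at the 70th 308 and 432. Signal close to the floor limits Cybrd1 and 1441709_at of Slc11a2.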

Other observations

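Genes of copper supply, which loads the ferroxidase encoded by Heph, lay within 1.5-fold in all 8 cases by their brightest probe sets. So did 86.5% of all measured genes. The median log2 ratio of the copper genes was 0.28 (all measured genes -0.042), with 7 ratios above 0. Atp7a, the copper pump of the secretory pathway, read 1271 in control and 1808 in knockout (0.51, and 1.14 by its other probe set), and Slc31a2 read 193.7 and 271.9 (0.49). Atp7b had 0.38 by the brighter and -0.11 by the dimmer probe set. Ccs, the copper chaperone of superoxide dismutase, was lowest at -0.076.

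Of 17 measured ferroptosis genes, 4 were higher and 1 was lower by at least 1.5-fold (4.76% and 8.74% of all measured genes), with a median of 0.10. Gch1, the first enzyme of tetrahydrobiopterin synthesis, read 722.1 in control and 2064 in knockout (log2 ratio 1.51, and 0.75 by its other probe set). Chac1, which breaks down glutathione, read 135.5 and 297.7 (1.14). Acsl4, which activates the polyunsaturated fatty acids that Lpcat3 places into phospholipids, read 249.2 and 487.3 (0.97, and 0.62 by its other probe set). Gclc, of glutathione synthesis, was at 0.69 and 0.20 by its probe sets. Alox5, a lipoxygenase gene, read 402.8 and 183.2 (-1.14). In the same pools T and natural killer cell markers had a median of -2.51. Macrophage markers summed, without the floor, to 551 in control and 1468 in knockout. The part of these or any other cells in the Alox5 signal was not tested. Gpx4, the peroxidase that protects membrane lipids, read 8291 and 9610 (0.21), and Slc7a11 and Ptgs2 were below the floor in both pools.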
